A study of Homo sapiens with 12 samples.

Results

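The transcripts of the mitochondrial genome were followed in U251-MG cells, a human astrocytoma line, in RNA bound to YTHDF2 and in the RNA of the lysates. They were taken as the genes whose deposited name begins with MT-, which were 13 mRNAs. A reference list of gene names from outside the deposit also holds 2 rRNAs and 22 tRNAs with such names. All 13 mRNAs had a row in the table of 36963 genes, and all 13 passed the filter on low counts that kept 14804 genes. Neither rRNA and none of the 22 tRNAs had a row in that table, so they were not analysed here.

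YTHDF2 is a cytosolic reader of N6-methyladenosine in mRNA, and the study asked which mRNAs it binds in manganese-treated astrocytic cells. Cells were grown in medium with 2% serum, alone (control) or with 100 µM manganese chloride, and RNA immunoprecipitated (IP) with a YTHDF2 antibody was sequenced beside RNA of the cleared lysate (input). The 4 groups were control input, manganese input, control IP and manganese IP, with 3 libraries each. Input RNA was purified for poly(A) before library preparation and the labels' protocols record no such step for IP RNA, so recovery by the antibody and this difference in handling cannot be told apart. No control antibody and no exposure time are named in the labels. Whether the replicates were grown apart is not stated. U251-MG is 1 tumour line.

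The human mitochondrial genome is a small circle transcribed inside the organelle from both strands into long RNAs. These are cut, mostly at tRNAs, into mRNAs, most of which are given short poly(A) tails. The mRNAs encode core subunits of the respiratory chain: complex I (the ND genes), complex III (MT-CYB), complex IV (the CO genes) and the ATP synthase, complex V (MT-ATP6 and MT-ATP8). They are translated on mitochondrial ribosomes, and the other subunits of these complexes come from nuclear genes translated in the cytosol. In intact cells the mitochondrial membranes separate these RNAs from cytosolic proteins, whereas lysis with detergent, which was used here, can open them.

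Estimated counts per library ran from 16683984 (control IP 3) to 28425552. Control IP 3 had 56.88% of its fragments aligned, against 83.7% to 87.12% in the other 11 libraries. Counts assigned to PCGF6 made up 34.3% to 41.8% of a library's counts and 66.8% to 77.9% of its TPM, so they weigh on every CPM and TPM total; whether they come from PCGF6 mRNA was not tested. Of 11 astrocyte and glioma markers, VIM, NES, GFAP, CD44, SOX2 and SOX9 were present in every library (at least 125 CPM per total counts). The other 5 were low or absent. S100B ran from 3.03 to 32.5 CPM, SLC1A3 from 1.06 to 18.7 CPM and SLC1A2 from 0.352 to 3.29 CPM. ALDH1L1 ran from 0 to 0.739 CPM, and AQP4 was at 0 in all 12. Of 10 tested, GFAP, S100B and SOX9 were lower and NES and CD44 higher with manganese in the input, against 3.63% and 11.3% of all tested genes. Between the IPs 4 of the 10 were lower and 1 higher with manganese, against 22.5% and 20.4%. RBFOX3 and STMN2 (neurons), AIF1, TYROBP and CX3CR1 (microglia) were at 0 in every library, and EPCAM and CDH1 (epithelium) reached at most 1 count. KRT19 stayed at 0.238 CPM or less, but KRT18 ran from 5.87 to 29.6 CPM and KRT8 from 1.97 to 14.5 CPM. The epithelium list summed to 26.8 to 38.5 CPM in control inputs and 24.4 to 35.7 CPM in manganese inputs. Its sums were 8.39 to 15 CPM in control IPs and 33.4 to 35.5 CPM in manganese IPs. Its 2 tested genes, KRT8 and KRT18, were lower in control IP against input (14.2% of all tested genes) and higher with manganese between the IPs (20.4%). CD68, a lysosomal protein of macrophages that other cells also make, carried most of the microglia and macrophage list, whose sum was 5.91 to 10.8 CPM in the control inputs and 37.5 to 40.0 CPM in the manganese inputs. It was 2.29 to 3.48 CPM in the control IPs and 32.1 to 36.8 CPM in the manganese IPs. The neuron list summed to 52.6 to 59.2, 27.0 to 35.7, 69.2 to 94.2 and 41.1 to 49.5 CPM in control inputs, manganese inputs, control IPs and manganese IPs. The part of these marker differences in the results on mitochondrial mRNAs was not tested.

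The 13 mRNAs together took 2.96%, 2.31% and 2.28% of the counts of the control inputs. They took 4.36%, 3.72% and 3.78% of the manganese inputs. In the control IPs they took 1.07%, 0.863% and 0.448%, and in the manganese IPs 1.74%, 1.33% and 1.33%. The 4 groups therefore did not overlap, with means of 2.52 ± 0.39% (SD, n = 3), 3.95 ± 0.35%, 0.793 ± 0.316% and 1.47 ± 0.24%. With PCGF6 left out of the totals, the means were 3.84%, 6.19%, 1.29% and 2.49%. Control IP 3, the library with the low share of aligned fragments, had the lowest mitochondrial share of the 12. These sums describe the libraries and were not tested. In bulk RNA, fewer cells rich in these transcripts and less of the RNA per cell cannot be told apart.

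**Figure D1:**
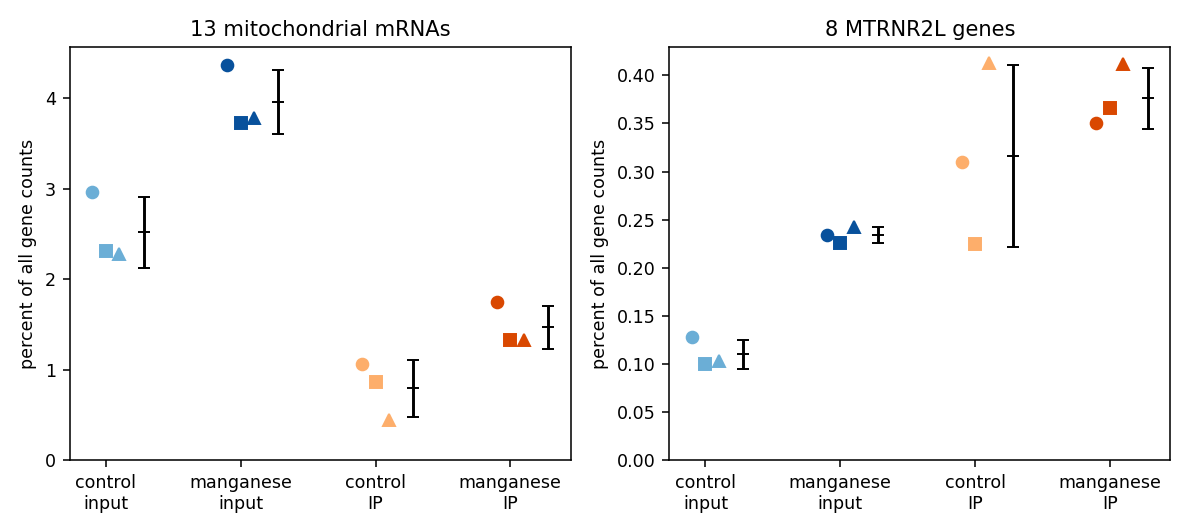
Percent of all gene counts in each of the 12 libraries (points; circle, square and triangle for libraries 1, 2 and 3 of a group) taken by the 13 mitochondrial mRNAs (left) and by the 8 MTRNR2L genes (right), with mean and SD in black. The mitochondrial mRNAs were lower in the IPs than in the inputs (0.448% to 1.74% against 2.28% to 4.36%), whereas the MTRNR2L genes were at 0.225% to 0.413% in the IPs and 0.0999% to 0.242% in the inputs.

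Per length, on the TPM scale, the levels of the mRNAs differed widely within the input. In control input the highest was MT-CO2, a complex IV subunit, with 3945 ± 516 TPM (SD, n = 3), followed by MT-CO1, the catalytic subunit of complex IV, with 3060 ± 464 TPM, MT-ND3 with 2467 ± 453 TPM and MT-ATP6 with 2115 ± 353 TPM. The ranges of neighbours in that order overlapped, although MT-CO2 ranked first, MT-CO1 next and MT-ND3 after it in each of the 3 libraries. MT-CYB (1640 TPM), MT-ND4 (1597 TPM), MT-CO3 (1408 TPM), MT-ND4L (1325 TPM) and MT-ND2 (1099 TPM) followed, each overlapping the next. MT-ND1 (716 ± 121 TPM) lay apart from its neighbours. MT-ND6 (458 ± 98.6 TPM), the 1 mRNA whose gene lies on the opposite strand to the other 12, and MT-ND5 (444 ± 89.0 TPM) overlapped. MT-ATP8 was last with 29.1 ± 4.15 TPM.

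The order in manganese input began with MT-CO2 (5808 ± 328 TPM), which lay above MT-ND3 (4164 ± 55.0 TPM) without overlap, and then MT-ATP6 (4029 ± 345 TPM) and MT-CO1 (3574 ± 426 TPM). In the IPs MT-CO1 led, with 1443 ± 489 TPM in control and 1425 ± 309 TPM in manganese cells. In manganese IP it was closely followed by MT-ATP6 (1414 ± 209 TPM), and the ranges overlapped. In the IPs MT-CO2 had 734 ± 346 TPM in control and 1302 ± 253 TPM in manganese cells. MT-ATP8 was last in each of the 12 libraries. Its low estimate is a property of these counts: its gene overlaps MT-ATP6, as MT-ND4L overlaps MT-ND4, and how the estimation shared reads between such neighbours was not tested. Overlapping neighbours enter each count of calls as separate genes.

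**Figure D2:**
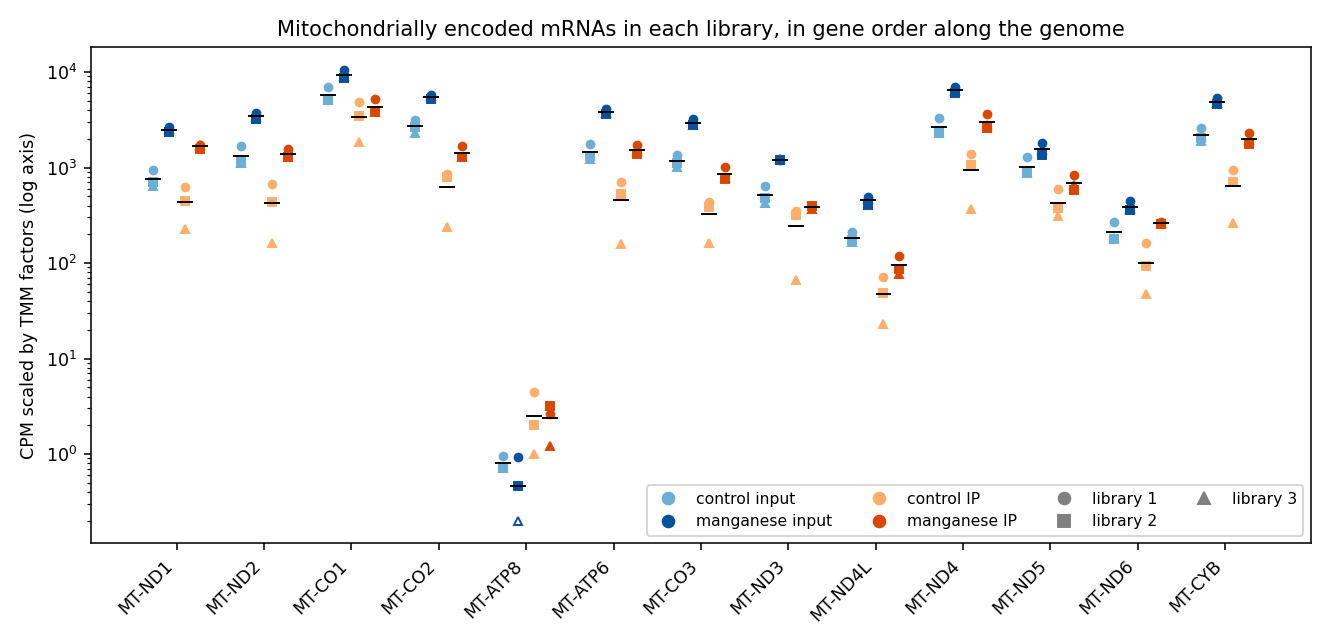
Level of each of the 13 mitochondrial mRNAs in each library, as CPM scaled by TMM factors on a log axis, with genes in their order along the mitochondrial genome and black lines for group means (an open triangle marks the value of 0 of MT-ATP8 in manganese input 3, drawn at 0.2). For 12 mRNAs each control IP library lies below each control input library, and control IP 3 is the lowest of the 12 libraries, while MT-ATP8 lies below 5 in every library.

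The first comparison, IP against input in control cells, gives the level of each mRNA in the YTHDF2 IP relative to the lysate, with the difference in handling included. At least 1 mRNA of each of the complexes I, III, IV and V was lower in the IP: 10 of 13 passed the test as lower (quasi-likelihood test of edgeR, p-values adjusted over all tested genes by Benjamini-Hochberg, threshold 0.05), against 14.2% of all tested genes, and 0 passed as higher, against 17.2%. For 12 of 13 every IP library lay below every input library, against 21.2% of tested genes, and for 1, MT-ATP8, above, against 22.6%. The median log2 of IP over input was -1.51 for the 13 and 0.04 for all tested genes.

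Among the complex IV mRNAs, MT-CO2 stood at 3184, 2628 and 2285 CPM (counts scaled by library size and TMM factors) in control inputs 1 to 3 and at 849.5, 794 and 240.1 CPM in control IPs 1 to 3. It was 4.30-fold lower in the IP (log2 -2.10 ± 0.35 SE, adjusted p = 0.000514). The groups did not overlap, and control IP 3 was lowest. MT-CO1, the most abundant by counts, stood at 7034, 5282 and 5075 CPM in the inputs and at 4876, 3435 and 1871 CPM in the IPs. Here too the groups did not overlap, but the gap between them was small and the difference missed the threshold (-0.77 ± 0.28, adjusted p = 0.0509). MT-CO3 fell to a similar degree as MT-CO2 (-1.83 ± 0.29, adjusted p = 0.000372), from 1013 to 1352 CPM in the inputs to 162 to 437 CPM in the IPs.

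Of the 7 complex I mRNAs, 6 were called lower. MT-ND4L, a small membrane subunit, had 212, 173 and 164 CPM in the inputs and 70.7, 48.5 and 22.8 CPM in the IPs. Its log2 of IP over input was -1.95 ± 0.32 (adjusted p = 0.00043), 3.86-fold lower. The others called were MT-ND2 (-1.63 ± 0.37, adjusted p = 0.00394), MT-ND4 (-1.51 ± 0.36, adjusted p = 0.0054), MT-ND5 (-1.24 ± 0.25, adjusted p = 0.00196), MT-ND6 (-1.06 ± 0.33, adjusted p = 0.0239) and MT-ND1 (-0.82 ± 0.28, adjusted p = 0.0372). MT-ND3 had 639, 475 and 423 CPM in the inputs and 355, 316 and 66.7 CPM in the IPs. Its groups did not overlap and control IP 3 lay far below the other IPs, and the difference did not pass (-1.06 ± 0.41, adjusted p = 0.0696). The labels do not say whether the counting used strand, so reads of MT-ND6 and reads antisense to it cannot be told apart.

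MT-CYB, the cytochrome b of complex III, fell by 1.77 ± 0.34 on the log2 scale (adjusted p = 0.00139), and MT-ATP6, a subunit of the proton channel of complex V, by 1.64 ± 0.38 (adjusted p = 0.00463). MT-ATP8 was the exception. Its counts were 23, 23 and 23 in the inputs and 106, 47 and 19 in the IPs. On the scaled level the IPs lay above the inputs (0.992 to 4.48 against 0.719 to 0.963 CPM), with a log2 of 1.64 ± 1.02 that did not pass (adjusted p = 0.256). At these counts a difference of this size was not detectable.

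The calls were not equally firm. MT-CO1 passed as lower in 16 of 25 alternatives, among them DESeq2 (-0.80, adjusted p = 0.00811), total counts as scaling (-1.13, adjusted p = 0.00235) and the fit without control IP 1 (-1.13, adjusted p = 0.00258), and MT-ND3 in 11 of 25, among them DESeq2 (-1.10, adjusted p = 0.0132) and the fit without control IP 3 (-0.61, adjusted p = 0.00461). Leaving out control IP 3 moved the median of the 13 to -1.13 with 11 called lower, and leaving it out together with control input 1 moved it to -0.93 with 9 called. The call of MT-ND1 was lost without control input 1 (-0.65), control input 2 (-0.87) or control IP 2 (-0.85), and that of MT-ND6 without control input 1 (-0.85) or control IP 2 (-1.02). Shorter genes had lower ratios throughout these libraries: the median log2 of IP over input in control cells ran from -0.766 in the decile of shortest tested genes to 0.694 in that of the longest, and the mitochondrial mRNAs lay between the 0 (MT-ATP8) and the 48.4 (MT-ND5) percentile of effective length. With length as an offset in the fit, 7 of 13 were called lower, the median was -1.15, and MT-ND1 (-0.28, adjusted p = 0.554), MT-ND6 (-0.39, adjusted p = 0.451) and MT-ATP6 (adjusted p = 0.0631) were not called.

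The same comparison in manganese-treated cells gave 10 of 13 lower, against 17.6% of tested genes, and 0 higher, against 14.8%. For 12 of 13 every IP library lay below every input library, against 29.2% of tested genes, and for MT-ATP8 above, against 24.8%. The median was -1.29, and -0.03 over all tested genes. At an unadjusted p under 0.05, 1 mRNA was higher, MT-ATP8 (log2 2.32 ± 1.06, adjusted p = 0.113), which DESeq2 called (2.39, adjusted p = 0.0344) as did limma on log2(TPM + 1) (2.86, adjusted p = 0.0406). Its counts were 20, 10 and 0 in the inputs and 64, 67 and 27 in the IPs.

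MT-ND4L was again among the lowest, at 491, 403 and 464 CPM in the manganese inputs and 119, 87.1 and 76.8 CPM in the IPs, 4.79-fold lower (-2.26 ± 0.32, adjusted p = 0.000175). MT-CO2 stood at 5767, 5232 and 5587 CPM in the inputs and at 1676, 1289 and 1304 CPM in the IPs, 3.89-fold lower (-1.96 ± 0.35, adjusted p = 0.000898). In contrast to control cells, the libraries of a group lay close together. MT-CO3 (-1.79 ± 0.29), MT-ND3 (-1.63 ± 0.42), MT-ND2 (-1.32 ± 0.36), MT-ATP6 (-1.31 ± 0.37), MT-CYB (-1.29 ± 0.34), MT-ND5 (-1.18 ± 0.25), MT-CO1 (-1.13 ± 0.28) and MT-ND4 (-1.11 ± 0.35) were also called lower, with adjusted p from 0.000474 to 0.0278.

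MT-ND1 and MT-ND6 did not pass in manganese cells, with log2 values of -0.58 ± 0.28 (adjusted p = 0.128) and -0.57 ± 0.32 (adjusted p = 0.211). MT-ND1 had 2636, 2343 and 2503 CPM in the inputs and 1736, 1551 and 1710 CPM in the IPs. MT-ND6 had 443, 355 and 368 CPM in the inputs and 270, 255 and 263 CPM in the IPs. For each gene the groups did not overlap. Both passed without control IP 3 (adjusted p = 0.00506 and 0.0293), which changes the shared spread, and MT-ND1 also without control IP 1 (adjusted p = 0.0425). The call of MT-ND4 was lost without manganese input 1 (-1.01), manganese IP 2 (-0.99) or manganese IP 3 (-1.02). With the length offset MT-ND2, MT-ATP6 and MT-ND4 were not called (-0.99, -0.84 and -0.88).

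**Figure D3:**
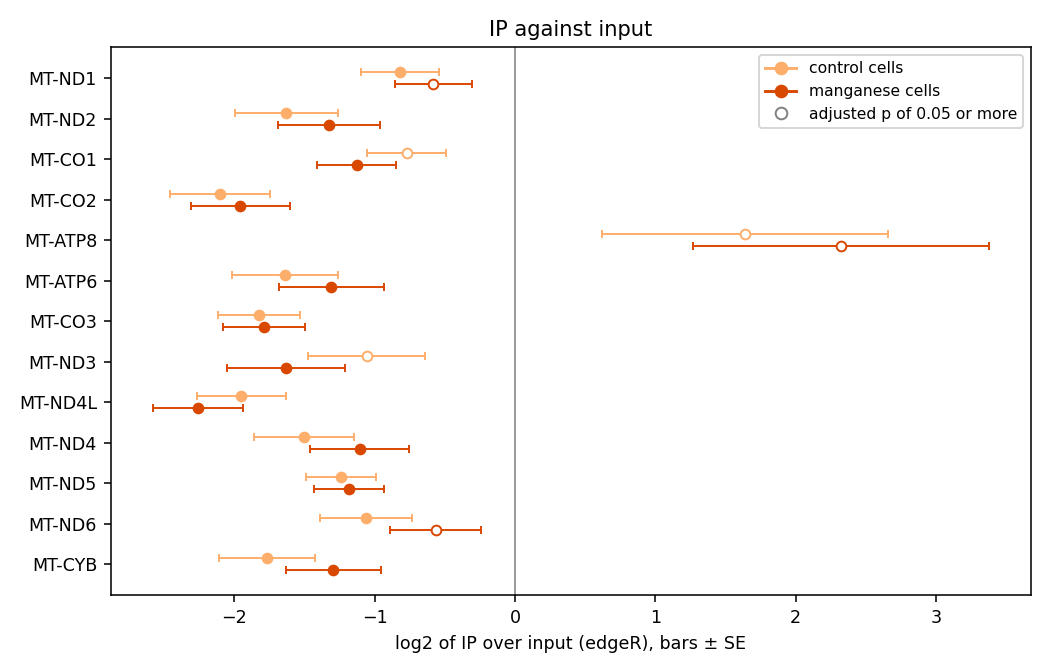
Log2 of IP over input from edgeR for each mitochondrial mRNA in control cells (light) and manganese-treated cells (dark), with bars of ± SE and open circles where the adjusted p was 0.05 or more. Of 13 mRNAs, 12 lie below 0 in both treatments, from -0.77 to -2.10 in control and from -0.57 to -2.26 in manganese cells, and MT-ATP8 lies above 0 with a wide error.

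Manganese against control in the input shows how the lysate level of these mRNAs differed with treatment. Complex I, III, IV and V mRNAs were all represented among those that rose: 7 of 13 passed as higher with manganese, against 11.3% of tested genes, and 0 as lower, against 3.63%. For 12 of 13 each manganese library lay above each control library, against 23.3% of tested genes. The median log2 of manganese over control was 1.23, and -0.04 over all tested genes.

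MT-ND1, a complex I subunit, changed most among the called mRNAs. It had 942, 714 and 640 CPM in the control inputs against 2636, 2343 and 2503 CPM in the manganese inputs, 3.26-fold higher (1.70 ± 0.28, adjusted p = 0.000857). MT-ATP6 rose from 1771, 1309 and 1236 CPM to 4112, 3612 and 3702 CPM (1.40 ± 0.38, adjusted p = 0.021). In each case control input 1 was the highest control library and still lay well below the manganese libraries. MT-ND2 (1.40 ± 0.36), MT-CO3 (1.34 ± 0.29), MT-ND4L (1.31 ± 0.31), MT-ND4 (1.28 ± 0.35) and MT-CYB (1.17 ± 0.34) were the other calls, with adjusted p from 0.00564 to 0.0312.

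In 5 mRNAs the log2 lay above 0 without passing: MT-ND3 (1.23 ± 0.42, adjusted p = 0.0671), MT-CO2 (1.03 ± 0.34, adjusted p = 0.0614), MT-ND6 (0.88 ± 0.33, adjusted p = 0.0939), MT-CO1 (0.70 ± 0.28, adjusted p = 0.127) and MT-ND5 (0.63 ± 0.25, adjusted p = 0.119). None of the 5 had overlapping groups. MT-CO1, for example, stood at 10526, 8711 and 9000 CPM in the manganese inputs, each above the highest control input at 7034 CPM. MT-ATP8 had 0.94, 0.457 and 0 CPM against 0.719 to 0.963 CPM, and its groups overlapped (-0.77 ± 1.03, adjusted p = 0.743).

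The number of calls in the input depended on the libraries in the fit, which share 1 estimate of the spread. It was 2 without control input 2 or control input 3, 4 without manganese input 1, 5 without manganese input 3, 6 without control input 1 or manganese input 2, and 12 without control IP 1 or control IP 3. MT-ND1 and MT-CO3 were called each time. MT-ND2 and MT-ND4L were lost without control input 2 or 3, MT-ATP6 there and also without manganese input 1, MT-ND4 also without manganese input 1 or 3, and MT-CYB without any 1 of the 6 inputs. Scaling mattered as well: TMM factors were 1.22 to 1.32 in the control inputs and 0.909 to 0.942 in the manganese inputs. Scaled by total counts instead, the median of all tested genes moved from -0.04 to -0.49, the median of the 13 was 0.79, and 5 were called. With linear models (limma) on log2(TPM + 1), 2 were called.

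Manganese against control in the IP gave 10 of 13 higher, against 20.4% of tested genes, and 0 lower, against 22.5%. For 10 of 13 the groups did not overlap, against 24.8% of tested genes. The median was 1.38, and -0.09 over all tested genes. MT-ND1 again led, from 623, 449 and 229 CPM in the control IPs to 1736, 1551 and 1710 CPM in the manganese IPs, 3.84-fold higher (1.94 ± 0.28, adjusted p = 0.000117). MT-ATP6 (1.73 ± 0.38), MT-ND2 (1.70 ± 0.37), MT-ND4 (1.68 ± 0.36) and MT-CYB (1.64 ± 0.34) followed, with adjusted p from 0.00161 to 0.0023. Then came MT-ND6 (1.38 ± 0.33), MT-CO3 (1.38 ± 0.29), MT-CO2 (1.18 ± 0.34), MT-ND4L (1.00 ± 0.31) and MT-ND5 (0.69 ± 0.25), with adjusted p from 0.00175 to 0.0381.

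The IP groups of MT-ND5 overlapped, since control IP 1 (598 CPM) lay above manganese IP 2 (588 CPM). MT-CO1 did not pass (0.34 ± 0.28, adjusted p = 0.354): its manganese IPs, at 5181, 3907 and 3841 CPM, overlapped control IP 1 at 4876 CPM. MT-ND3 did not pass either (0.66 ± 0.41, adjusted p = 0.221), although its manganese IPs, at 399, 398 and 368 CPM, lay just above control IP 1 at 355 CPM. MT-ATP8 was at -0.09 ± 0.99, and its groups overlapped. The MT-ND5 call was lost without control input 2 (0.69), control IP 2 (0.61), control IP 3 (0.50) or manganese IP 1 (0.54), and that of MT-ND4L without manganese IP 1 (0.81). MT-CO1 passed without control IP 1 (0.68, adjusted p = 0.0295). Without control IP 3 the median of the 13 was 1.04 and 9 were called, and with total counts as scaling the medians of the 13 and of all tested genes were 1.14 and -0.37, with 9 called.

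**Figure D4:**
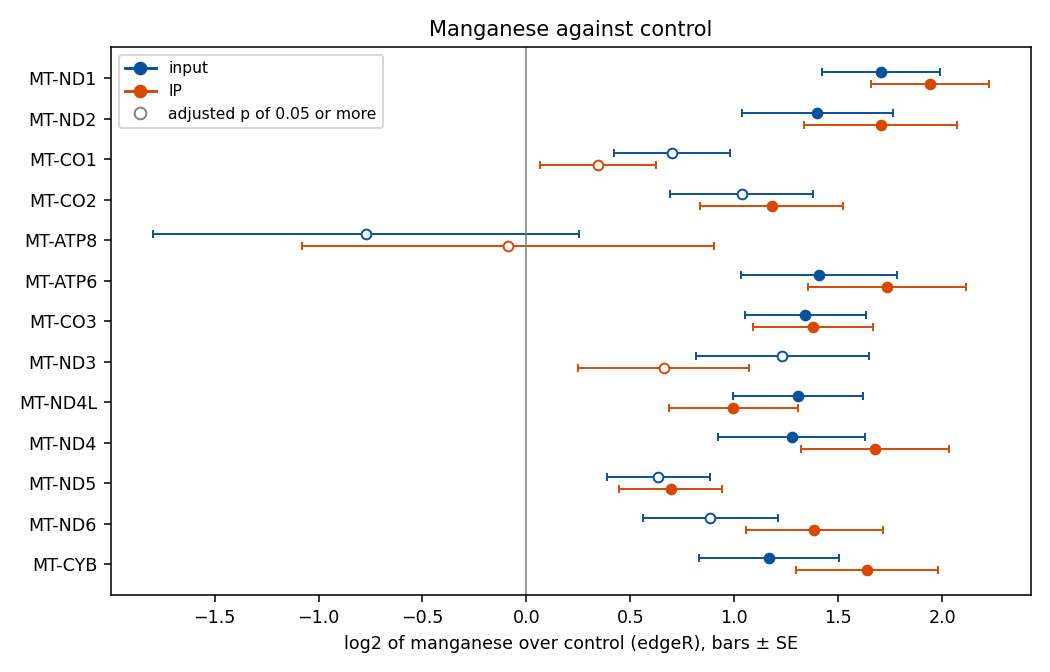
Log2 of manganese over control from edgeR for each mitochondrial mRNA in the input (blue) and in the IP (orange), with bars of ± SE and open circles where the adjusted p was 0.05 or more. Of the 13 mRNAs, 12 lie above 0 in both fractions, with MT-ND1 highest (1.70 in the input, 1.94 in the IP) and MT-CO1 lowest among them in the IP (0.34).

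The change of enrichment asks whether the ratio of IP to input differed between treatments. For the 13 mRNAs edgeR called 0 in either direction, against 17.1% of tested genes. At an unadjusted p under 0.05 there were also 0, and DESeq2 and limma on TPM called 0. The values ran from -0.57 ± 0.58 (MT-ND3, 95% interval -1.82 to 0.68) to 0.68 ± 1.42 (MT-ATP8), with a median of 0.24, and -0.17 over all tested genes. The intervals were wide with 3 libraries a group: for MT-ND1 the change was 0.24 (-0.60 to 1.07) and for MT-CYB 0.47 (-0.54 to 1.48). For each of these genes, no change and a change within its interval cannot be told apart.

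Single libraries moved these values across 0. Without control IP 3 the median was -0.09 and MT-ND3 passed as lower (-1.02, adjusted p = 0.00202). Without control IP 3 and control input 1 together the median was -0.30, and MT-ND3 (-1.21, adjusted p = 0.000271) and MT-CO1 (-0.81, adjusted p = 0.02) passed as lower. Without control IP 1, MT-ND6 passed as higher (1.05, adjusted p = 0.041).

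The make-up of the mitochondrial mRNA counts, which does not depend on scaling between libraries, also differed between groups. MT-CO1 took 28.9%, 28.9% and 29.5% of these counts in the control inputs and 22.7%, 21.9% and 21.6% in the manganese inputs. It took 41.8%, 39.8% and 48.0% in the control IPs and 25.4%, 24.6% and 23.3% in the manganese IPs. No 2 of the 4 groups overlapped, and the highest share was in control IP 3. MT-ND1 showed the opposite order by treatment, with 3.84 ± 0.098% (SD, n = 3) in control input, 5.86 ± 0.17% in manganese input, 5.47 ± 0.36% in control IP and 9.55 ± 0.95% in manganese IP. The manganese groups lay above the control groups of the same fraction without overlap.

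MT-CO2 moved with fraction and little with treatment. Its share was 13.6 ± 0.69% and 13.01 ± 0.51% in control and manganese input, which overlapped, and 7.55 ± 1.54% and 8.08 ± 0.16% in control and manganese IP, which overlapped too. MT-ND4 had 13.3 ± 0.44% in control and 15.1 ± 0.060% in manganese input, and 11.2 ± 1.5% and 16.9 ± 0.63% in the IPs, without overlap in either fraction. MT-CYB took 10.96%, 11.5% and 11.3% in control input, manganese input and manganese IP, and 7.69 ± 0.86% in control IP. The shares are parts of 1 total, so a lower share of MT-CO1 raises the others, and they were not tested.

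**Figure D5:**
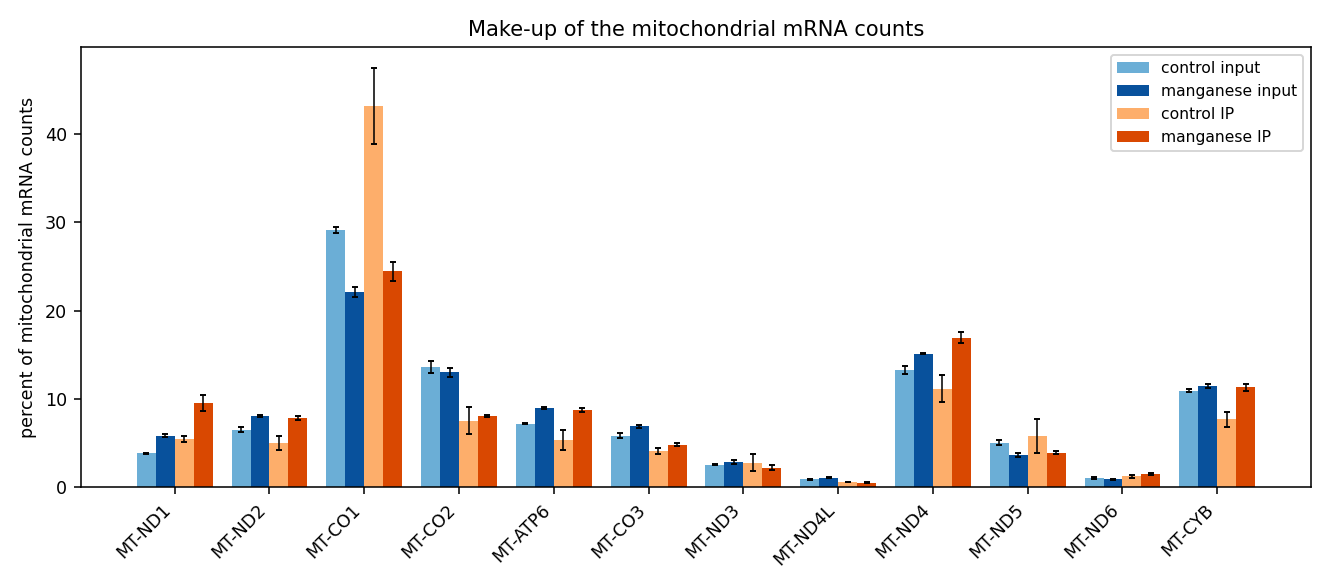
Percent of the mitochondrial mRNA counts taken by each mRNA in the 4 groups (bars are means of 3 libraries, error bars ± SD; MT-ATP8, below 0.04% in every library, is left out). MT-CO1 took 43.2% in control IP against 24.4% in manganese IP and 29.1% in control input, and MT-ND1 took 9.55% in manganese IP.

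Nuclear copies of mitochondrial genes can take or give reads in the counting, and 353 genes named as pseudogenes of the 13 mRNAs were in the table. Most carried no reads. The copies held 10.2% of the counts of MT-ND1 and its copies together (0 to 19.6% by library), nearly all in MTND1P23, and 7.83% for MT-ATP6 (mostly MTATP6P1), 3.50% for MT-ND4, 2.23% for MT-ND2 and at most 0.265% for the other 9. MTND1P23 had 2330, 1250 and 0 counts in the control IPs and 5696, 7884 and 8830 in the manganese IPs. MTATP6P1 differed in the same directions as its parent: its log2 was -2.02 ± 0.35 and -1.84 ± 0.34 for IP over input in control and manganese cells, and 1.27 ± 0.34 and 1.46 ± 0.34 for manganese over control in input and IP, each with adjusted p of at most 0.0199. Its call in the input was lost without control input 2 (1.23), control input 3 (1.22) or manganese input 1 (1.16). Adding the copies to their parents left 9 mRNAs called lower in control IP, with MT-ND1 not called (-0.74, adjusted p = 0.0779). The origin of the reads given to each copy was not tested.

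MTCO1P12, the largest copy of MT-CO1, had 345, 652 and 515 counts in the control inputs and 702, 522 and 674 in the manganese inputs. It had 225, 122 and 111 in the control IPs and 106, 86 and 86 in the manganese IPs. Its log2 of IP over input was -1.31 ± 0.27 (adjusted p = 0.00222) in control and -2.85 ± 0.29 (adjusted p = 1.75e-05) in manganese cells, a change of -1.54 ± 0.38 (adjusted p = 0.0152), where MT-CO1 itself was at -0.35 ± 0.39 (adjusted p = 0.601). The call of this change was lost without manganese input 1 (-1.39) or manganese input 3 (-1.42). Between the IPs it was lower with manganese (-0.73 ± 0.27, adjusted p = 0.0439), a call lost without any 1 of 9 libraries, all but control input 1, control IP 2 and control IP 3.

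The MTRNR2L genes, nuclear genes that resemble the mitochondrial 16S rRNA gene MT-RNR2 and encode humanin-like peptides, went the other way in the IP. Of 8 in the table, MTRNR2L1, MTRNR2L8 and MTRNR2L4 carried most of the counts. MTRNR2L8 stood at 565, 452 and 424 CPM in the control inputs and at 1788, 1159 and 1925 CPM in the control IPs. Its log2 of IP over input was 1.76 ± 0.20 (adjusted p = 3.45e-05), with no overlap. MTRNR2L1 (1.90 ± 0.19, adjusted p = 1.37e-05) and MTRNR2L4 (1.87 ± 0.24, adjusted p = 7.18e-05) were higher in the IP as well. For every 100 counts of the 13 mRNAs, the 8 genes had 4.38 ± 0.11 counts (SD, n = 3) in control input and 5.95 ± 0.53 in manganese input, but 29.0, 26.1 and 92.2 in the control IPs and 26.1 ± 5.5 in manganese IP. Control IP 3, lowest in the mitochondrial mRNAs, was highest here.

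In manganese cells the log2 of IP over input was 1.09 ± 0.19 for MTRNR2L1 (adjusted p = 0.000645), 0.72 ± 0.20 for MTRNR2L8 (adjusted p = 0.0137) and 0.44 ± 0.23 for MTRNR2L4 (adjusted p = 0.173). MTRNR2L4 passed without control IP 3 (0.43, adjusted p = 0.04). With manganese the input levels rose by a log2 of 1.52 ± 0.19, 1.52 ± 0.20 and 1.65 ± 0.24 for MTRNR2L1, MTRNR2L8 and MTRNR2L4 (adjusted p of at most 0.000288), as the mitochondrial mRNAs called above did. In the IP the difference with manganese was 0.71 ± 0.18 for MTRNR2L1 (adjusted p = 0.00718), 0.49 ± 0.20 for MTRNR2L8 (adjusted p = 0.0639) and 0.22 ± 0.23 for MTRNR2L4 (adjusted p = 0.48). Without control IP 3, MTRNR2L8 (0.62, adjusted p = 0.0116) and MTRNR2L4 (0.54, adjusted p = 0.0238) passed, whereas with total counts as scaling MTRNR2L1 did not (0.41) and MTRNR2L4 changed sign (-0.10). The 16S rRNA has no row of its own in the table, and how many of these reads come from it was not tested.

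Subunits of the same complexes that nuclear genes encode were set beside the mitochondrial ones. Of 75 listed, 74 were in the table and 71 were tested. In control cells 46 were lower and 4 higher in IP than in input (14.2% and 17.2% of all tested genes), with a median log2 of -1.44. In manganese cells 21 were lower and 4 higher (17.6% and 14.8% of all), with a median of -0.54. For complexes I, III, IV and V the control counts called lower were 20 of 35, 7 of 8, 7 of 10 and 12 of 18. COX8A, a complex IV subunit, was at -2.61 ± 0.24 (adjusted p = 7.98e-06) in control and -0.99 ± 0.23 (adjusted p = 0.00452) in manganese cells, and ATP5ME, a complex V subunit, at -3.82 ± 0.25 (adjusted p = 2.59e-06) and -1.83 ± 0.23 (adjusted p = 7.15e-05). With the length offset COX8A was not called in manganese cells (-0.51, adjusted p = 0.0823).

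The nuclear list differed from the mitochondrial mRNAs in the input, where 1 of 71 was higher and 1 lower with manganese (11.3% and 3.63% of all tested genes), with a median of -0.15, beside 7 of 13 and a median of 1.23. In the IP 28 were higher and 2 lower with manganese (20.4% and 22.5% of all), with a median of 0.70. The change of enrichment was called higher for 14, against 6.94% of tested genes, and lower for 1, against 10.2%, with a median of 0.80 beside 0.24 for the mitochondrial mRNAs. The difference between the lists was not tested. Of 4 complex II subunits, a complex with no mitochondrially encoded part, 0 were called by edgeR between the inputs and 0 for the change. In IP against input 1 was higher and 2 lower in control cells and 2 higher and 2 lower in manganese cells, and between the IPs 2 were higher and 1 lower with manganese.

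Genes that make, process, stabilise or translate mitochondrial RNA were counted over 5 lists, with 67 tested. Between the inputs 6 were higher and 1 lower with manganese, shares no larger than the 11.3% and 3.63% of all tested genes. Between the IPs 11 were higher and 25 lower with manganese, against 20.4% and 22.5% of all tested genes. In IP against input 19 were higher and 11 lower in control cells (17.2% and 14.2% of all). In manganese cells these numbers were 12 and 14 (14.8% and 17.6% of all). The change of enrichment was called higher for 5 and lower for 13 (6.94% and 10.2% of all), with a median of -0.23. POLRMT, the mitochondrial RNA polymerase, was 3.00-fold higher in manganese input (1.59 ± 0.26, adjusted p = 0.000687) and 9.30-fold higher in manganese IP (3.22 ± 0.27, adjusted p = 1.63e-06). TUFM, a mitochondrial translation elongation factor, was higher in the input (0.79 ± 0.17, adjusted p = 0.00648), as were SUPV3L1, a helicase of mitochondrial RNA decay (0.94 ± 0.27, adjusted p = 0.0326), and GRSF1, a protein of mitochondrial RNA granules (0.62 ± 0.15, adjusted p = 0.0137). With total counts as scaling POLRMT passed, and TUFM (0.34), SUPV3L1 (0.48) and GRSF1 (0.17) did not. The call of SUPV3L1 was lost without any 1 input library except manganese input 2, and that of GRSF1 without control input 2 (0.59), control input 3 (0.59) or manganese input 2 (0.50).

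TFAM, which packages mitochondrial DNA and starts its transcription, did not pass in the input (-0.20 ± 0.16, adjusted p = 0.504; with total counts as scaling -0.65, adjusted p = 0.0112) and was lower with manganese in the IP (-1.29 ± 0.16, adjusted p = 3.3e-05). LRPPRC and SLIRP form a complex that keeps mitochondrial mRNAs stable. In the input LRPPRC was at -0.35 ± 0.15 (adjusted p = 0.172) and SLIRP at -0.04 ± 0.29 (adjusted p = 0.963). LRPPRC passed as lower there under 6 of 25 alternatives, among them total counts as scaling (-0.79, adjusted p = 0.000894) and DESeq2 (-0.42, adjusted p = 0.0264). In the IP LRPPRC was lower with manganese (-0.64 ± 0.15, adjusted p = 0.00412) and SLIRP higher (0.95 ± 0.29, adjusted p = 0.0174). That call of SLIRP was lost with limma at either pseudocount (0.65 and 0.66) and with only the libraries compared (1.01). In control cells LRPPRC was higher in IP than in input (0.72 ± 0.15, adjusted p = 0.00275), which changed sign on the TPM scale (-0.17), and SLIRP was lower (-1.15 ± 0.29, adjusted p = 0.00838). With the length offset neither passed (0.40, adjusted p = 0.141, and -0.47, adjusted p = 0.208), nor did LRPPRC between the IPs (-0.44, adjusted p = 0.0718).

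MTPAP, the mitochondrial poly(A) polymerase, was at -0.48 ± 0.19 in the input (adjusted p = 0.129), and it passed under several alternatives, among them total counts as scaling (-0.94, adjusted p = 0.00383) and DESeq2 (-0.56, adjusted p = 0.0364), or when manganese IP 3 was left out (-0.55, adjusted p = 0.0467). In the IP it was lower with manganese (-1.71 ± 0.20, adjusted p = 1.86e-05), after being higher in IP than in input in control cells (1.11 ± 0.19, adjusted p = 0.000704). The call in control cells was lost with limma at either pseudocount (0.47 and 0.55). SUPV3L1 and PNPT1, a mitochondrial RNA exonuclease, differed in opposite directions in the IP, with 1.26 ± 0.27 (adjusted p = 0.00207) and -0.69 ± 0.20 (adjusted p = 0.0131). The PNPT1 call was lost with only the libraries compared (-0.65, adjusted p = 0.0659). In the input PNPT1 was at 0.15 ± 0.20 (adjusted p = 0.73), and -0.29 with total counts. For POLRMT the control IP lay below the input (-1.03 ± 0.26, adjusted p = 0.00784), a call lost with only the libraries compared (-1.17, adjusted p = 0.0717). These are levels of the nuclear mRNAs, not of the proteins.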

How the data were processed

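The authors deposited estimated counts per Ensembl gene and the same genes as TPM for 12 libraries, quantified with kallisto on hg19 per the submitters' processing notes; the version is not given in the sources used here. A further deposited table lists, for each library, the count of fragments and the percent of them aligned. Gene names came from the authors' deposited analysis table; its own ratios were not used. Columns were matched to samples by title.

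Estimated counts were rounded to whole numbers and tested in edgeR 4.0.16 under R 4.3.3 (quasi-likelihood F test). Genes were kept by filterByExpr (minimum count 10, minimum total 15), scaled by TMM factors and fitted in 1 model of 12 libraries with a mean per group and no replicate block. There were 5 contrasts, with Benjamini-Hochberg adjustment over 14804 genes and a threshold of 0.05. CPM are scaled by TMM factors, except those of markers and marker lists, which are per total counts. Errors are SD over libraries, or SE for log2 changes, whose intervals use the t distribution with edgeR's total degrees of freedom. Spread between these libraries, which may be technical, is all that the p-values measure. The code was tested on simulated data. Alternatives were RLE, total-count and PCGF6-free scaling, 2 filters, DESeq2 1.42.0, limma 3.58.1 on log2(TPM + 1) and log2(TPM + 0.1), fits of only the libraries compared, a replicate block, a length offset, pseudogene copies added to parents, and leaving out libraries.

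Members and gene lists were chosen with earlier results of these data known. All MT- genes are accounted for. Of the lists (DNA maintenance, transcription, RNA processing, RNA stability and decay, translation, nuclear respiratory subunits, chaperones and stress, import, non-polyadenylated RNAs, cell markers), up to 3 genes with the smallest p per contrast could be named, and TFAM, POLRMT, LRPPRC, SLIRP, PNPT1, SUPV3L1 and MTPAP in any case. Marker genes and the genes named among the chaperone and import lists were chosen after their values were seen. No reference sequence of the mitochondrial genome was used here, and no coordinates are given.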

Additional observations from a re-analysis of the deposited data

Results flagged for a closer look

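No mitochondrial mRNA stood out by a tested difference between treatments in its ratio of IP to input. Of the other genes named, 9 did, each by edgeR's test of the change of enrichment with manganese. The MTRNR2L genes had lower ratios with manganese: MTRNR2L1 changed by -0.81 ± 0.26 (adjusted p = 0.0483), MTRNR2L8 by -1.03 ± 0.28 (adjusted p = 0.0237) and MTRNR2L4 by -1.43 ± 0.33 (adjusted p = 0.0113). The call of MTRNR2L1 was lost without any 1 library except control input 1, control IP 2 and control IP 3 (-0.70 to -0.83) and under 8 processing alternatives (RLE, total-count and PCGF6-free scaling, both filters, limma at either pseudocount and the length offset), 17 of 25 in all, and that of MTRNR2L8 without control input 2 or 3, any manganese input, or manganese IP 1 or 2 (-0.92 to -1.03), with limma (-0.95 at either pseudocount) or with the length offset (-1.14). MTRNR2L4 lost its call in 1 of 25 alternatives, limma on log2(TPM + 0.1) (-1.31, adjusted p = 0.0503). The pseudogene MTCO1P12 changed by -1.54 ± 0.38 (adjusted p = 0.0152).

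TFAM changed by -1.08 ± 0.22 (adjusted p = 0.0065) and MTPAP by -1.23 ± 0.27 (adjusted p = 0.00978), whereas POLRMT changed by 1.63 ± 0.36 (adjusted p = 0.00904). These 3 did not pass with limma on log2(TPM + 1) (-0.86, -0.77 and 0.78). The nuclear subunits ATP5ME and COX8A changed by 1.98 ± 0.32 (adjusted p = 0.00211) and 1.63 ± 0.32 (adjusted p = 0.00516), and were called under each of 25 alternatives.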

How the results depend on the processing

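Of 325 values of the 13 mRNAs under alternatives per comparison, the direction and side of the threshold held for 285 (IP against input, control), 306 (manganese), 264 (manganese against control, input), 304 (IP) and 297 (change). The first 3 comparisons had 0 reversals. MT-ATP8 had the lowest counts of the 13, at 0 to 106 per library. The cause of the moves below was not tested.

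For IP against input in manganese cells, DESeq2 and limma on log2(TPM + 1) each called 1 mRNA higher. For manganese against control in the input, mRNAs called higher numbered 2 with limma at either pseudocount, 12 with only the libraries compared, 12 with control input 1 and control IP 3 left out together (chosen after seeing the data), and 2 to 12 leaving out 1 library. Calls of a change ran from 0 to 1 in each direction leaving out 1 library, and 2 were lower with both libraries left out. Shares were 3.84%, 6.19%, 1.29% and 2.49% without PCGF6, in the order control input, manganese input, control IP and manganese IP, and 2.11%, 3.40%, 0.625% and 1.12% by TPM.

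The labels do not say whether equal numbers mark paired libraries. Deviations from group means of libraries with equal numbers correlated across genes with r of -0.12 to 0.066, between fractions or between treatments. Between input and IP of the same treatment r was -0.001 to 0.066. Such correlations over all genes cannot settle whether libraries were paired. The replicate block called 11 mRNAs higher in the input (7 without), where it gained MT-CO1, MT-CO2, MT-ND5 and MT-ND6. In IP against input it gained as lower MT-CO1 (-0.86, adjusted p = 0.00738) and MT-ND3 (-1.34, adjusted p = 0.0181) in control cells and MT-ND1 (-0.58, adjusted p = 0.0372) in manganese cells, and it put MT-ATP8 at 0.10 between the IPs.

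Counts over all genes moved too. For IP against input in control cells, higher calls (2543) were 1679 with total counts, 1560 and 1409 with limma at 1 and 0.1, and 1636 with only the libraries compared, and lower calls (2096) were 3419 and 3168 with limma. For manganese input, higher calls (1678) were 1076 and 967 with limma, and lower calls (537) were 2621 with total counts, 871 with the 1 CPM filter, 1124 with DESeq2, 2448 and 2065 with limma, 1866 with only the libraries compared and 286 to 1064 leaving out 1 library. For the change, higher calls (1028) were 1574 with DESeq2, 1624 with both libraries left out and 675 to 1496 leaving out 1, and lower calls (1503) were 670 and 591 with limma, 825 with the length offset, 2374 with both left out and 771 to 2269 leaving out 1.

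Reversed changes of enrichment with both libraries left out were MT-ND1 -0.25, MT-ND2 -0.30, MT-CO2 -0.38, MT-ATP6 -0.26, MT-CO3 -0.41, MT-ND4 -0.18, MT-ND5 -0.34, MT-ND6 -0.066 and MT-CYB -0.054. The length offset reversed MT-CO2 (-0.023) and MT-CO3 (-0.13). Leaving out 1 library gave changes of -0.073 to 0.63 (MT-ND1), -0.086 to 0.85 (MT-ND2), -0.65 to 0.040 (MT-CO1), -0.25 to 0.48 (MT-CO2), -0.084 to 0.81 (MT-ATP6), -0.29 to 0.35 (MT-CO3), -0.65 to 0.15 (MT-ND4L) and -0.15 to 0.40 (MT-ND5); apart from the lowest of MT-ND5 (without control input 1), the lowest came without control IP 3 and the highest without control IP 1. Between the IPs, MT-ATP8 ran from -0.47 to 0.62 without these 2 libraries in turn, and MTRNR2L4 from -0.0083 (without control IP 2) to 0.54 (without control IP 3). Other reversals were LRPPRC in control IP against input (-0.17 and -0.18 with limma), SLIRP in the input (2e-04 with both left out), PNPT1 in the input (-0.29 with total counts, -0.10 and -0.11 with limma) and MTRNR2L4 between the IPs (-0.10 with total counts, -0.13 and -0.13 with limma, -0.028 with the length offset).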

Other observations

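Other lists around the organelle are small, and their counts stand beside the shares of all tested genes called higher and lower: 11.3% and 3.63% between the inputs, 20.4% and 22.5% between the IPs, 17.2% and 14.2% for IP against input in control cells, 14.8% and 17.6% in manganese cells, and 6.94% and 10.2% for the change. Of 12 tested genes of mitochondrial chaperones and stress, HSPA9, a mitochondrial chaperone, and DDIT3, a transcription factor of the stress response, were higher in manganese input and 0 lower by edgeR. In the IP 5 were higher and 2 lower with manganese. The ratio of IP to input was higher for 3 and lower for 3 in control cells, and higher for 2 and lower for 0 in manganese cells, with 1 higher change and 0 lower. Of 11 tested import genes, VDAC1, an outer membrane channel, was higher and TIMM8A lower in manganese input, and in the IP 1 was higher and 4 lower. Of these 11, 2 were higher and 3 lower in control IP against input, and 0 higher and 3 lower in manganese cells, with 1 higher and 2 lower changes.

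Of 12 genes that maintain mitochondrial DNA, 2 were higher and 0 lower with manganese in the input, and in the IP 3 were higher and 4 lower. Their ratio of IP to input was higher for 2 and lower for 3 in control cells. In manganese cells it was higher for 1 and lower for 3, with 2 higher and 2 lower changes. Non-polyadenylated RNAs could be read for 6 of 26 listed. Of these, 2 were lower and 0 higher by edgeR in control IP against input, and 1 and 0 in manganese cells. Between the inputs 0 differed by edgeR, and 0 changed in enrichment. Between the IPs 1 was higher and 1 lower with manganese.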
